A study of Mus musculus with 2 samples.

Results

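The DNase I accessibility of 7 genes known as markers of CA1 pyramidal neurons was described in mouse hippocampus: Wfs1, Mpped1, Fibcd1, Pou3f1, Man1a, Gpr161 and Lefty1, of 21851 protein-coding genes with a coding start site. Each gene was taken with its body and 50 kb to each side, in the GENCODE M21 annotation of mm10 (GRCm38), and every peak whose midpoint lay in these 1044856 bp was used. The 7 regions held 112 of 144270 peaks in replicate 1 and 100 of 124426 peaks in replicate 2, which together formed 132 sites.

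The samples were 2 DNase-seq libraries of 1 group, replicates 1 and 2, from hippocampus tissue (labelled as a layer of hippocampus) of male B6CASTF1/J mice aged 8 to 10 months. Each library came from a pool of 2 biosamples, and both carry the same donor label, while nothing in the labels says if any mouse is in both pools. There was no treatment, genotype or second condition, so the spread between the replicates may be technical and no test between conditions was possible. DNase I cuts DNA that nucleosomes leave exposed, a peak marks a stretch with many cuts, its height is the authors' own value for the strength of that signal, and a footprint is a short stretch inside it that is spared from cutting, as happens under a bound protein.

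CA1 is the field of the hippocampus whose pyramidal neurons carry its main output to the subiculum and cortex. Wfs1 encodes wolframin, a membrane protein of the endoplasmic reticulum, and Man1a encodes a Golgi mannosidase that trims N-linked glycans. Pou3f1 encodes a POU homeodomain transcription factor. Gpr161 encodes an orphan receptor of the primary cilium that restrains Hedgehog signalling, Fibcd1 a membrane receptor with a fibrinogen-like domain, and Lefty1 a secreted inhibitor of Nodal, a ligand of the TGF-beta superfamily. Mpped1 encodes a protein with a metallophosphoesterase domain. All cells of the tissue contribute to these libraries, so a site cannot be assigned to CA1 neurons, and fewer cells of a type cannot be told apart from a lower signal per cell.

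Sequences are shown first for the start sites, because starts with and without a peak both ranged from GC-rich to less GC-rich DNA, then for the tallest site outside promoters of each gene, and last for the sites that differed most between the replicates. All are read from the GRCm38 reference, plus strand, 5′ to 3′, without annotated UTR bases. Capitals mark bases that lie in footprints called in both replicates. The promoter peaks of Wfs1 and Pou3f1 and the tallest other site of Mpped1 lie within annotated UTRs and are given by position alone. The Mpped1 window without a peak is the upstream stretch of a RefSeq promoter; the RefSeq table matched 5 of the 7 genes, and Pou3f1 and Lefty1 have no entry there.
Mpped1 CpG-rich start without a peak, chr15:83779773-83779981: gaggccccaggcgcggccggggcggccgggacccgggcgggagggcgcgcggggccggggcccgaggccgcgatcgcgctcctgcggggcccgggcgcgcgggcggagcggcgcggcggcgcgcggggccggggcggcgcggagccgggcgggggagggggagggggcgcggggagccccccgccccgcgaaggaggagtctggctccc
Mpped1 inner start with a peak in both replicates, chr15:83784930-83785080: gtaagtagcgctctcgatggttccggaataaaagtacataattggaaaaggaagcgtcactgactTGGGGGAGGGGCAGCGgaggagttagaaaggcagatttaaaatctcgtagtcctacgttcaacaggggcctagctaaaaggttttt
Man1a promoter peak, chr10:54075797-54075960: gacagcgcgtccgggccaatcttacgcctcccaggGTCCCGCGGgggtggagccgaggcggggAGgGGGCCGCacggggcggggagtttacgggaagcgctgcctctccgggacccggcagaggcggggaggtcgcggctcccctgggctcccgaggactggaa
Fibcd1 promoter peak of replicate 1 alone, chr2:31846006-31846158: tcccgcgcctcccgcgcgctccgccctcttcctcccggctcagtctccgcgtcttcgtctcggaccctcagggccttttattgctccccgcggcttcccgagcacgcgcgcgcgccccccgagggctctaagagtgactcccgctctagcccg
Wfs1 upstream site, chr5:37028181-37028420: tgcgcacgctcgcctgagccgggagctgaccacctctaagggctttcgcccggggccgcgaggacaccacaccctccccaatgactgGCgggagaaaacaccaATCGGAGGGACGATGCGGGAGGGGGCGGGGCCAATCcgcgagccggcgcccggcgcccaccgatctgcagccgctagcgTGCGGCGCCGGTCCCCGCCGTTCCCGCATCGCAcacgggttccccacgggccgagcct
Fibcd1 intron site, chr2:31822781-31823020: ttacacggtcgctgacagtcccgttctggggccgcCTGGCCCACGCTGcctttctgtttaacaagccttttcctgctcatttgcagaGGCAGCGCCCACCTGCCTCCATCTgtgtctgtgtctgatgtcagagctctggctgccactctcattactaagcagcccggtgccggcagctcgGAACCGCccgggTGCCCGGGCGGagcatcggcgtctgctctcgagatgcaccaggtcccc
Pou3f1 downstream site, chr4:124675141-124675340: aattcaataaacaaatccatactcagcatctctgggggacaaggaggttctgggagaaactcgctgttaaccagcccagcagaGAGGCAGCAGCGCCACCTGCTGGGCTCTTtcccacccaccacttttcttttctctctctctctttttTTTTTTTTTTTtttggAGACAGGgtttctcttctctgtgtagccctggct
Man1a downstream site, chr10:53863541-53863760: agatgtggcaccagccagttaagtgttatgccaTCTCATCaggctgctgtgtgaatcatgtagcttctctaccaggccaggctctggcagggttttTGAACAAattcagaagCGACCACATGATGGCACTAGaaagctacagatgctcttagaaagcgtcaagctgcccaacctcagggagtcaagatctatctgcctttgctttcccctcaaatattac
Gpr161 intron site, chr1:165320641-165320840: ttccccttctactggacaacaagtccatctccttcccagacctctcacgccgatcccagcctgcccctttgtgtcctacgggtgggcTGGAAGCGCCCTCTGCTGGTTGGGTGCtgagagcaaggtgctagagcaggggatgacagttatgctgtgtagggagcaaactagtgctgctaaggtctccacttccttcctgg
Lefty1 region site in an Ephx1 intron, chr1:180987881-180988080: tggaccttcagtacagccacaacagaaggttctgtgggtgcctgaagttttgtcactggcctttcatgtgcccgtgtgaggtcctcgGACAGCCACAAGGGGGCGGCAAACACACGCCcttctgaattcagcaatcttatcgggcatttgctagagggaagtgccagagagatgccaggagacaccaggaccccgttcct
Wfs1 upstream site, higher in replicate 2, chr5:37002081-37002280: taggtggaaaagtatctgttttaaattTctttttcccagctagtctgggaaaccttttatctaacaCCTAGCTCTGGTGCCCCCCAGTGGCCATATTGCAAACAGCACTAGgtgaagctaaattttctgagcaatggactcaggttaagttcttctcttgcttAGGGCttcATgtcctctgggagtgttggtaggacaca
Mpped1 upstream site, higher in replicate 2, chr15:83760781-83760960: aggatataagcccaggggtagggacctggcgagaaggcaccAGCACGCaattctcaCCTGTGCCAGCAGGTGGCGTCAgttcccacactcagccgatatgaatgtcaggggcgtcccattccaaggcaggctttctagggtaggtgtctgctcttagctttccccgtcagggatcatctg
Gpr161 region site in a Dcaf6 intron, higher in replicate 1, chr1:165342188-165342401: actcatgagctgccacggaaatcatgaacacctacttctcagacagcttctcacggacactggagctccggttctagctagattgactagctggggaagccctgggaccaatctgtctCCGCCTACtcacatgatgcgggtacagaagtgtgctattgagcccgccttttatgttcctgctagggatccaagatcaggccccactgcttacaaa

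The 4 start-site sequences range from the Mpped1 window of 90.0% GC, with 40 CpG dinucleotides in 209 bases and no base in a footprint of both replicates, to the Mpped1 inner start with 46.4% GC, 7 CpG and 16 footprint bases. Among the sites outside promoters, the Gpr161 intron site and the Pou3f1 downstream site carry a stretch in capitals around CTGCTGG, the reverse complement of a CTCF core. The Wfs1 upstream site, the Fibcd1 intron site and the Lefty1 region site each have GGGCGG, the string of the SP/KLF box, wholly in capitals. In the Lefty1 region site the capitals just before it hold CCACAAG, which differs from a CTCF core at a single base. There the SP/KLF name is that of the string alone. The Wfs1 site that was higher in replicate 2 holds none of the motifs searched for, and no CpG. Its capitals hold CCAGTGG, which also differs from a CTCF core at a single base.

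Promoters were called open where a peak lay within 1000 bp of a coding start site. By that rule 5 of the 7 genes were open in both replicates, Wfs1, Mpped1, Pou3f1, Man1a and Gpr161, where 62.6% of all coding genes were. Fibcd1 was open in replicate 1 alone, as were 2.28% of all coding genes, and Lefty1 in neither. With 7 genes, 5 open promoters is close to the background share.

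Wfs1 had the tallest promoter, with a height of 7.20 in replicate 1 and 4.88 in replicate 2. The peak (chr5:36988941-36989200, 68% GC, 26 CpG) spans annotated 5′ UTR between the 2 coding starts of the gene, and its mean of 6.04 ± 1.64 (SD, n = 2) lay at the 78.3rd percentile of coding promoters open in both replicates. There, 3 GGGCGG boxes lay wholly in footprints of both replicates. Pou3f1 followed with 3.68 in replicate 1 and 2.73 in replicate 2, mean 3.20 ± 0.667 (SD, n = 2), at chr4:124657261-124657560, 604 bp inside the gene and also in 5′ UTR. Its peak is 78% GC with 40 CpG. The Man1a promoter peak had 3.36 in replicate 1 and 2.34 in replicate 2, mean 2.85 ± 0.723 (SD, n = 2). These 3 genes lie on both sides of 3.26, the median promoter height of coding genes open in both replicates, and replicate 1 was higher in each.

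The other open promoters were low and lay at inner starts. Mpped1 had 1.14 in replicate 1 and 0.885 in replicate 2 at a start 5.5 kb inside the gene. Around its most upstream coding start (position 83779982 of chromosome 15, 86.7% GC and 56 CpG within 150 bases of it), neither replicate had a peak within 1000 bp, and neither had a single base listed at a false discovery rate of 0.05 or less. Gpr161 showed the same arrangement with AT-richer DNA. Its upstream start (position 165295789 of chromosome 1, 43.5% GC) had no peak and 0 listed bases in either replicate, while its inner start had 3 peaks in replicate 1, the tallest at 1.06, and 1 peak in replicate 2 at 0.814. The site these replicates share, chr1:165301742-165302020, had 0.807 in replicate 1 and 0.814 in replicate 2, and the site of 1.06 was called in replicate 1 alone, with 6 listed bases in replicate 2. Counting the annotated 5′ end of each gene alone, 3 of the 7 genes (Wfs1, Pou3f1 and Man1a) were open in both.

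Fibcd1 and Lefty1 lacked a shared promoter peak. The Fibcd1 start, 75.4% GC with 46 CpG, had 2 peaks in replicate 1, the taller at 0.669 with 415 listed bases within 1000 bp of the start, and neither a peak nor a listed base in replicate 2. The Lefty1 start (59.1% GC, 5 CpG) had no peak and 0 listed bases in both replicates. The gene body of Lefty1 held 1 peak, in an intron, at 0.562 in replicate 2 with none in replicate 1. A peak that is not listed shows only that the authors' threshold was not passed at this depth.

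**Figure D1:**
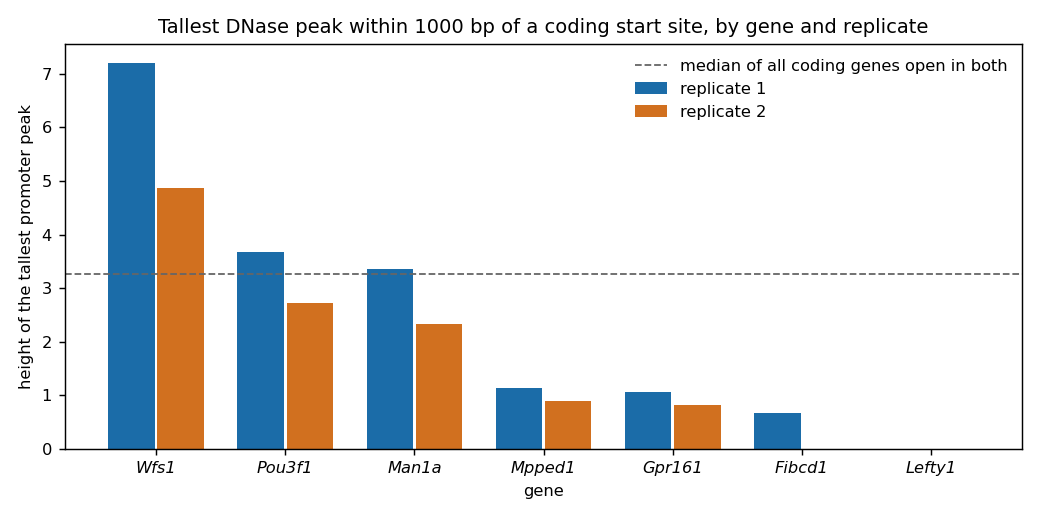
Height (the authors' value) of the tallest peak within 1000 bp of a coding start, for each of the 7 genes (x axis), in replicate 1 (left bar) and replicate 2 (right bar); the dashed line is the median of coding genes open in both. Wfs1 stands at 7.20 and 4.88, Pou3f1 and Man1a near the line, Mpped1 and Gpr161 near 1, Fibcd1 has a bar in replicate 1 alone and Lefty1 has none.

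Outside promoters each gene had its own arrangement of sites. In the Wfs1 region, with 16 peaks in replicate 1 and 19 in replicate 2, the gene body held no peak beyond the promoter, and the other sites lay to both sides. The tallest, 39.1 kb upstream and just before the body of Jakmip1, had 4.10 in replicate 1 and 3.76 in replicate 2. It is GC-rich (72.9%), with 32 CpG in 240 bases. It counts as outside promoters because no coding start lay within 1000 bp, and starts of other transcripts were not counted. Whether it is a promoter of Jakmip1 was not tested.

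Fibcd1 had a run of 5 paired sites inside its introns between 18.0 and 23.1 kb from the start, although its promoter was listed in 1 replicate alone. The tallest of the run, printed above, had 3.06 in replicate 1 and 2.58 in replicate 2. The site nearest the start in that run had 2.34 in replicate 1 and 2.05 in replicate 2, and the other 3 lay between 0.925 and 1.56 in replicate 1 and between 0.788 and 1.19 in replicate 2. All 5 were taller than the promoter peak of replicate 1.

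Mpped1 had the largest number of peaks, 29 in replicate 1 and 24 in replicate 2, of which 16 in replicate 1 and 12 in replicate 2 lay in its body. Its tallest site was in the 3′ UTR, chr15:83857221-83857420, with 2.00 in replicate 1 and 2.27 in replicate 2, and holds CCACCAG, a CTCF core, in footprints of both. A site in an intron, 74.2 kb from the annotated 5′ end, had 1.65 in replicate 1 and 1.96 in replicate 2. Both sites near the 3′ end were taller than any promoter site of the gene.

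Man1a, the longest of the 7 genes at 171825 bp, had few and low sites: 12 peaks in replicate 1 and 13 in replicate 2. Away from its promoter the tallest, beyond the 3′ end of the gene, had 1.21 in replicate 1 and 1.07 in replicate 2, and the 5 paired sites in its introns away from the start had 0.440 to 0.847 in replicate 1 and 0.452 to 0.639 in replicate 2. Gpr161 had 12 peaks in replicate 1 and 8 in replicate 2, the tallest in an intron 25 kb from the start with 2.19 in replicate 1 and 1.63 in replicate 2. Pou3f1, a gene of 3849 bp, had 1 peak in its body in each replicate, and 10 in replicate 1 and 9 in replicate 2 in its flanks; the tallest outside promoters by the mean of both replicates, 18.4 kb downstream of the start, had 1.42 in replicate 1 and 1.49 in replicate 2, and in replicate 1 a site 32.5 kb upstream was taller, at 1.57. A taller peak of the Pou3f1 region, 3.30 in replicate 1 and 2.57 in replicate 2, was the promoter of Utp11, a ribosome assembly factor.

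The Lefty1 region had 9 peaks in replicate 1 and 12 in replicate 2, nearly all at neighbouring genes. The tallest outside promoters lay in an intron of Ephx1, which encodes an epoxide hydrolase, with 1.80 in replicate 1 and 1.71 in replicate 2. These values describe the neighbourhood of Lefty1 rather than Lefty1 itself.

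**Figure D2:**
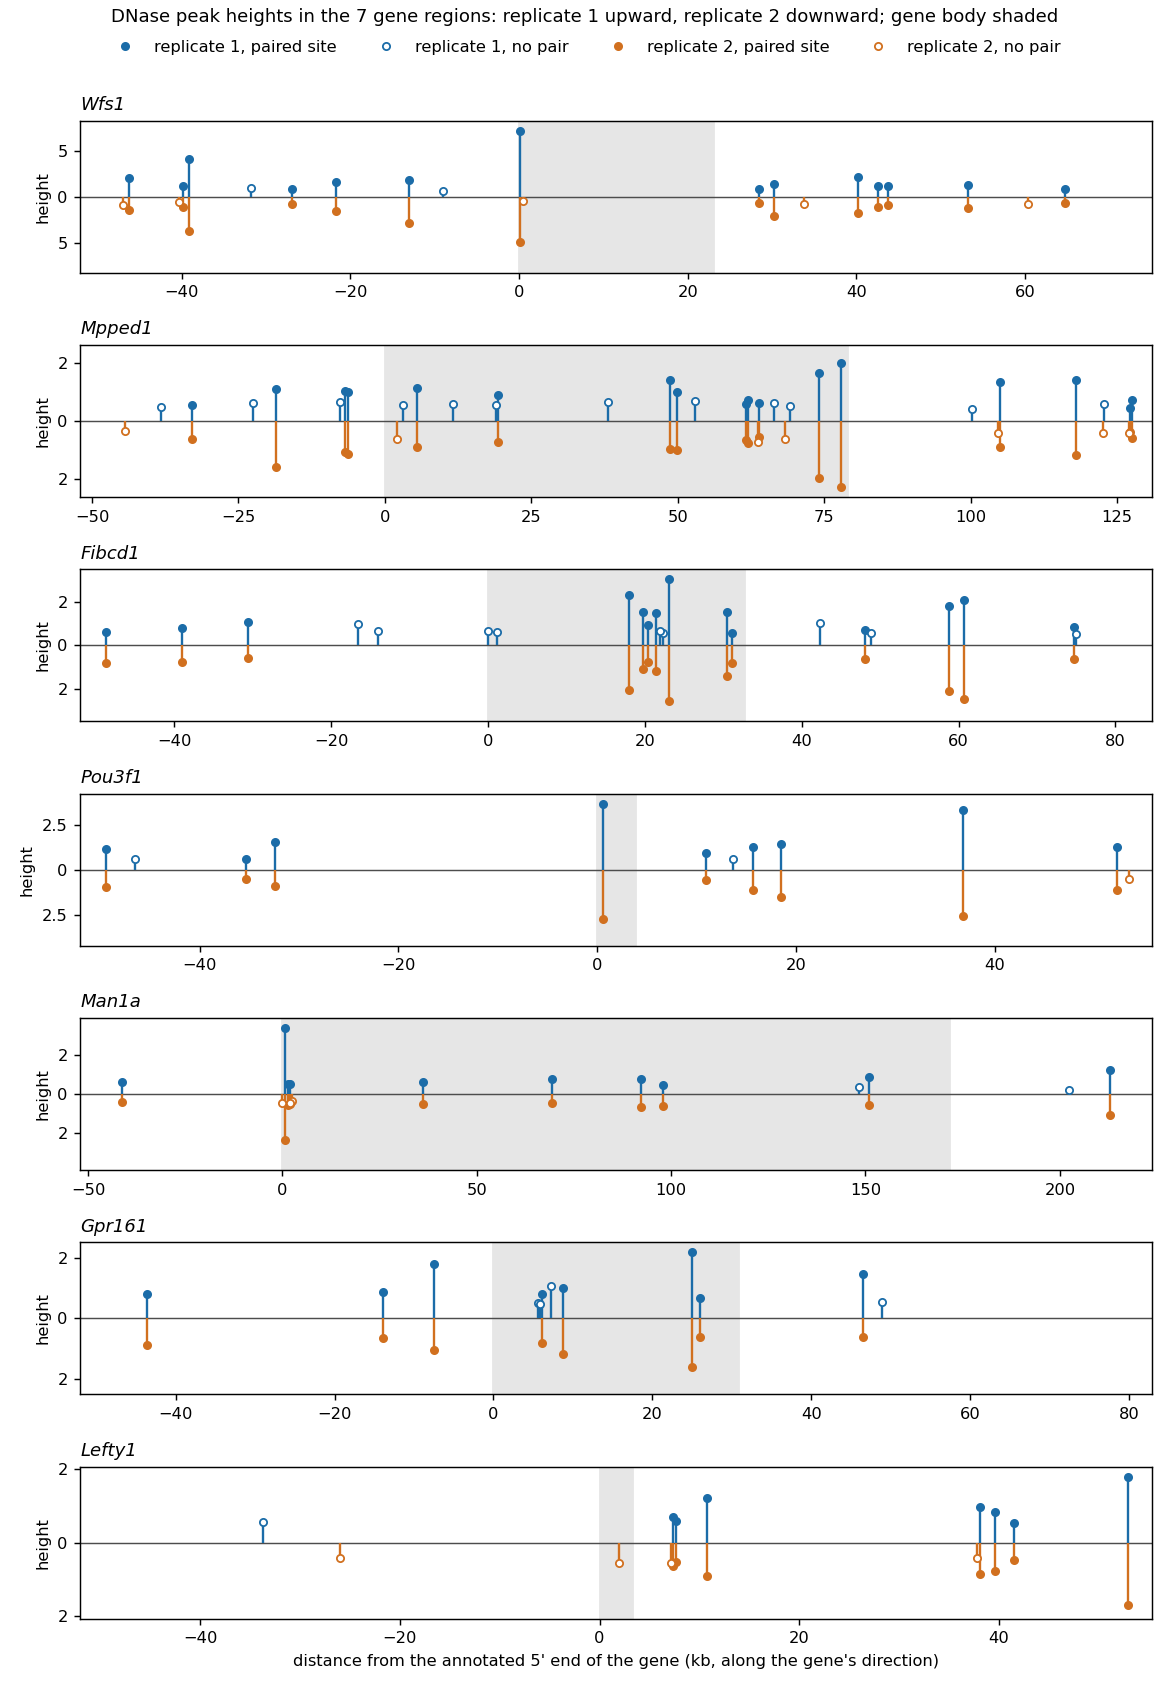
Height of every peak in the 7 gene regions against its distance from the annotated 5′ end in kb, with replicate 1 drawn upward and replicate 2 downward from 0 on a linear axis scaled to each gene; filled points are paired sites, open points peaks without a pair, and the shaded span is the gene body; 1 paired site of the Lefty1 region is not drawn. The Wfs1 promoter at 7.20 and 4.88 is the tallest of its region, the Fibcd1 sites cluster at 18.0 to 23.1 kb, and the Lefty1 body holds 1 peak of replicate 2.

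Peaks were dense around these genes. The 7 regions held 1.07 peaks per 10 kb in replicate 1 and 0.957 in replicate 2, mean 1.01 ± 0.0812 (SD, n = 2), against 0.529 in replicate 1 and 0.457 in replicate 2 over the whole genome. Gene neighbourhoods are denser than the genome at large: the median of 21938 coding genes taken with 50 kb to each side was 0.789 in replicate 1 and 0.698 in replicate 2, with upper quartiles of 1.19 in replicate 1 and 1.06 in replicate 2. Mpped1 (mean 1.48 ± 0.197), Wfs1 (1.42 ± 0.172) and Fibcd1 (1.39 ± 0.480, SD over n = 2 each) were highest; the order of these 3 was within the spread between replicates. Lefty1 had 1.02 ± 0.205 and Pou3f1 1.01 ± 0.0681, which did not differ beyond their spread. Gpr161 had 0.764 ± 0.216, and Man1a was lowest at 0.460 ± 0.0260, with no overlap between its replicates and those of any other of the 7.

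The same count was made for lists of genes of the same tissue, with genes ranked by the mean of both replicates. For 6 other CA1 and pyramidal genes it was 0.509 in each replicate, with Dkk3 and Neurod6 highest and Ndst4 lowest. For 8 CA2 and CA3 genes it was 0.894 in replicate 1 and 0.869 in replicate 2, with Rgs14 and Grik4 highest and Elavl2 and Nectin3 lowest. For 8 dentate granule cell genes it was 0.758 in replicate 1 and 0.702 in replicate 2, with Prox1 and Tdo2 highest and Npnt and Dsp lowest. The CA1 genes had the highest density of the 4 lists in both replicates, but the members and lists were chosen with earlier results of these data known, and the lists overlap gene by gene. Rgs14 had a higher mean (1.52 ± 0.185, SD, n = 2) than any of the 7, but within the spread of Mpped1 (1.48 ± 0.197). In replicate 1 Rgs14 had 1.39, below Fibcd1 (1.73) and Mpped1 (1.62). Promoters open in both replicates numbered 6 of 6, 7 of 8 and 6 of 8 in these lists, beside 62.6% of all coding genes.

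Promoters of markers of other cell types were open as well. Both replicates had a promoter peak at 4 of 4 excitatory neuron markers, 2 of 3 inhibitory neuron markers, 4 of 4 astrocyte markers, 3 of 4 oligodendrocyte markers, 1 of 3 microglia markers, 1 of 2 endothelial markers and 2 of 2 choroid plexus markers. Counting replicate 1 by itself, the inhibitory, microglia and endothelial counts were 3 of 3, 3 of 3 and 2 of 2. Over all coding genes, 62.6% were open in both replicates and 2.28% in replicate 1 alone. Counts of so few markers do not show which cell types contributed. Mean heights of the markers open in both replicates ran from 0.413 for Aqp4, an astrocyte marker, to 6.25 for Foxj1, a choroid plexus marker. The part of each cell type in the sites of the 7 genes was not tested.

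**Figure D3:**
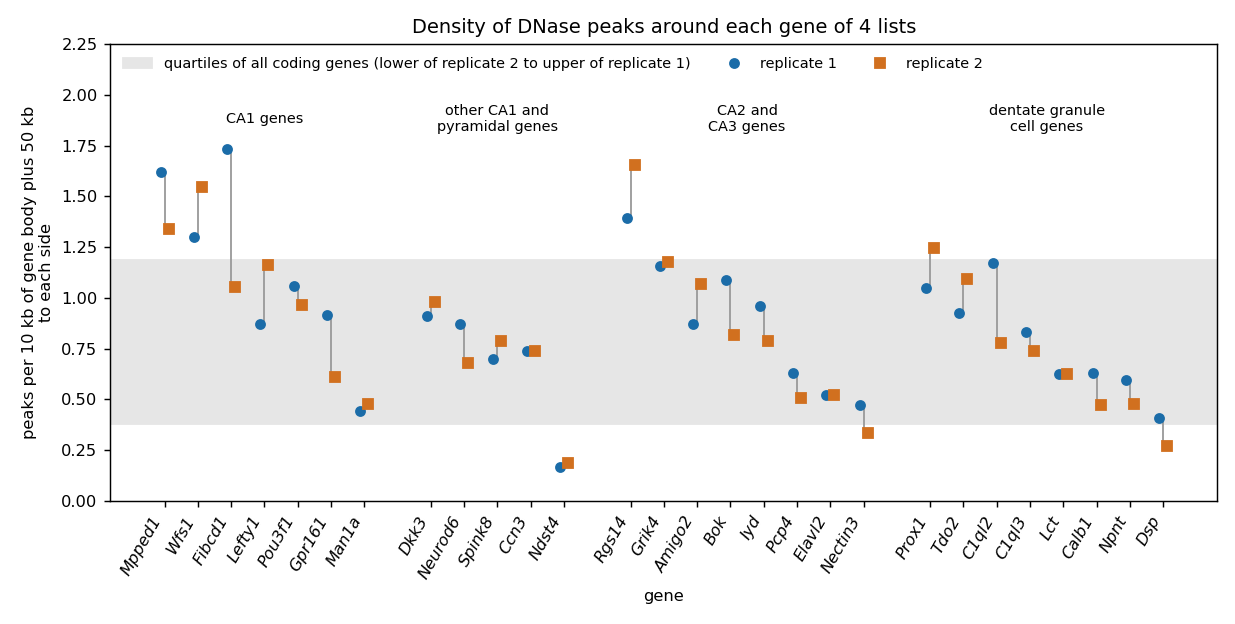
Peaks per 10 kb of gene body plus 50 kb to each side (y axis) for the genes of the 4 lists (x axis, 1 gene of the second list not drawn, sorted by mean within a list), with replicate 1 as circles on the left and replicate 2 as squares on the right. The grey band spans all coding genes from the lower quartile of replicate 2 to the upper quartile of replicate 1. Mpped1, Wfs1 and, of the CA2 and CA3 list, Rgs14 lie above the band in both replicates, Fibcd1 in replicate 1 alone and Prox1 in replicate 2 alone. The upper quartile of replicate 2 itself is lower, at 1.06, and in that replicate Lefty1, Grik4, Tdo2 and Amigo2 pass it too.

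Most, but not all, peaks were found in both replicates. Replicate 1 had 112 peaks in the regions, and 80 of them (71.4%) met a replicate 2 peak, where 72.3% of all replicate 1 peaks did. Replicate 2 had 100, and 81 of them (81%) met a replicate 1 peak, where 84.1% of all replicate 2 peaks did. The member peaks were taller than the genome's, with median heights of 0.860 in replicate 1 and 0.794 in replicate 2 against 0.643 in replicate 1 and 0.639 in replicate 2 over the genome, and peaks of like height over the genome were overlapped in 84.8% of replicate 1 and 91.5% of replicate 2. Both member shares lay below these like-height values.

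The shortfall differed among genes. In the Mpped1 region 17 of 29 peaks of replicate 1 and 17 of 24 of replicate 2 were overlapped. In the Fibcd1 and Gpr161 regions every peak of replicate 2 was overlapped (14 of 14 for Fibcd1 and 8 of 8 for Gpr161), while 14 of 23 and 8 of 12 peaks of replicate 1 were. In the Lefty1 region the direction turned, with 8 of 9 in replicate 1 and 8 of 12 in replicate 2.

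Peaks called in 1 replicate alone were low beside the paired sites of the regions, whose mean heights had a median of 1.05. The 32 of replicate 1 had a median height of 0.594, from 0.210 to 1.06, and the 19 of replicate 2 a median of 0.497, from 0.336 to 0.878. Over all peaks of the genome the median was 0.643 in replicate 1 and 0.639 in replicate 2. Of the 32, 6 had at least 1 base listed at a false discovery rate of 0.05 or less in replicate 2, where 14.4% of all such peaks did, and of the 19, 6 had one in replicate 1, where 25.1% did. The tallest were the Gpr161 promoter site of 1.06 and, in the Fibcd1 region, a site of 1.02 in the 3′ UTR of Abl1, a tyrosine kinase gene, both in replicate 1. The tallest of the Wfs1 region was 0.899 in replicate 1 and the tallest of the Mpped1 region 0.723 in replicate 2, where replicate 1 had 163 listed bases without a peak. In the Pou3f1 region it was 0.610 in replicate 1 at the promoter of 3100002H09Rik, in the Man1a region 0.465 in replicate 2, and in the Lefty1 region the intron peak of 0.562 in replicate 2.

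Heights of the 80 paired sites were compared after setting the median log2 ratio of all 101938 pairs of the genome, 0.19 in favour of replicate 1, to 0. The scaled log2 ratio of replicate 1 over replicate 2 then had a median of -0.01 over the 80 pairs, with quartiles of -0.21 and 0.19, beside -0.24 and 0.22 over the genome. It was above 0 in 39 pairs and below 0 in 41. Past 1.5-fold, replicate 1 was higher in 4 of 80 pairs, where 3.45% of all pairs were, and replicate 2 in 5 of 80, where 5.53% were. These counts are near the share over all pairs. All pairs of the genome were not matched for height, and the member peaks were taller than the genome's. Whether the spread between replicates differs from that of pairs of like height was not tested.

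The medians of the single genes were -0.06 for Wfs1 (14 pairs), -0.20 for Mpped1 (17), -0.00 for Fibcd1 (14), 0.12 for Pou3f1 (9), 0.04 for Man1a (10), 0.10 for Gpr161 (8) and -0.02 for Lefty1 (8). At promoters the 11 pairs had a median of 0.08 and the 69 other pairs -0.01, beside 0.09 for 21376 promoter pairs of the genome and -0.03 for its other pairs. Among the members, the tallest shared promoter sites of Wfs1 (0.37), Man1a (0.33), Pou3f1 (0.24) and Mpped1 (0.18) were above 0, while that of Gpr161 (-0.20) and the lower promoter sites of Man1a (-0.22 and -0.38) were below; none was past 1.5-fold.

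The largest difference was a site in an intron of Dcaf6 within the Gpr161 region, with 1.46 in replicate 1 and 0.633 in replicate 2. Its scaled log2 ratio was 1.02, with a 95% counting interval of 0.67 to 1.38. The largest in the other direction lay 13 kb upstream of Wfs1, with 1.85 in replicate 1 and 2.89 in replicate 2 and a ratio of -0.83 (interval -1.05 to -0.61). It is the second tallest site outside promoters in that region in replicate 2, and the Wfs1 promoter itself lay on the other side of 0, at 0.37 (interval 0.24 to 0.51). Another site of the Wfs1 region, 30.2 kb from the 5′ end and beyond the 3′ end of the gene, had 1.44 in replicate 1 and 2.05 in replicate 2 (-0.70), and the Mpped1 site 18.6 kb upstream had 1.10 in replicate 1 and 1.58 in replicate 2 (-0.72). The printed Mpped1 site has CCAGCAG in capitals, a CTCF core.

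In the Fibcd1 region the largest ratio in size was -0.67, at a 3′ UTR site with 0.571 in replicate 1 and 0.794 in replicate 2, and a site 30.6 kb upstream had 1.07 in replicate 1 and 0.594 in replicate 2 (0.66). In Man1a an intron site had 0.440 in replicate 1 and 0.594 in replicate 2 (-0.62), and another had 0.788 in replicate 1 and 0.452 in replicate 2 (0.61). In the Pou3f1 region the largest was 0.60, 32.5 kb upstream, with 1.57 in replicate 1 and 0.910 in replicate 2. For Lefty1 it was 0.24, in an intron of Tmem63a, with 1.23 in replicate 1 and 0.917 in replicate 2. Over the 80 pairs the counting interval left out 0 in 27, 15 above and 12 below. The same share over all pairs of the genome is not given here, so this count does not set these genes apart. The interval takes 1 height step as 1 cut, covers counting error alone and ignores every other source of difference between libraries.

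**Figure D4:**
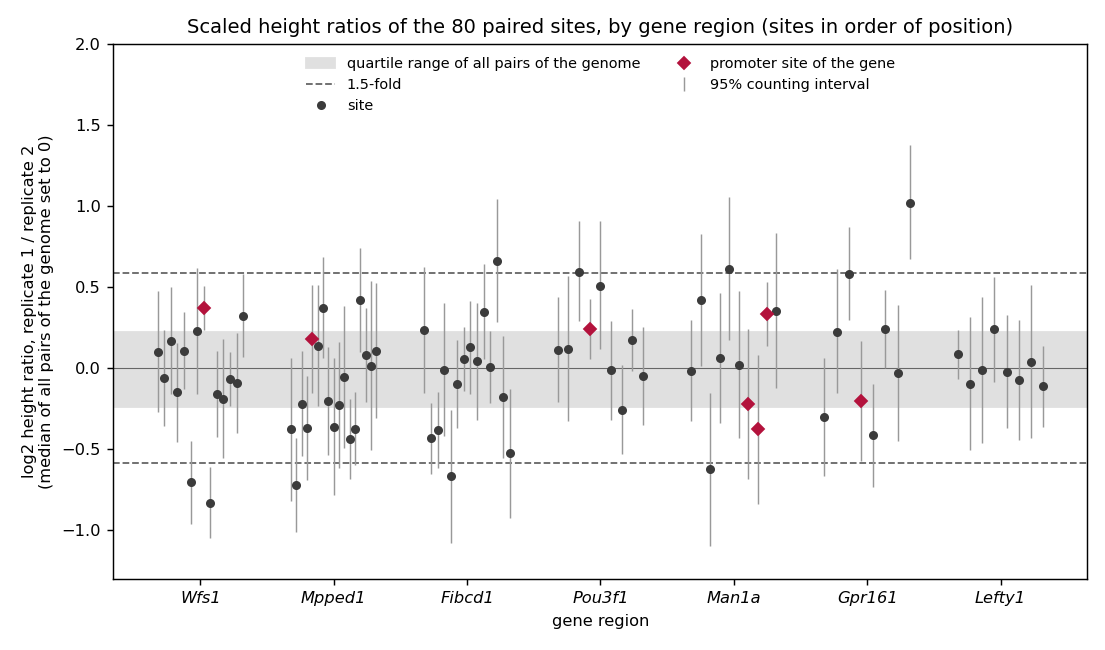
Scaled log2 height ratio of replicate 1 over replicate 2 (y axis) for each of the 80 paired sites, by gene region (x axis) and in order of position; bars are 95% counting intervals, diamonds are promoter sites of the gene, dashed lines mark 1.5-fold and the grey band the quartile range of all pairs of the genome. The Gpr161 region site at 1.02 and the Wfs1 site at -0.83 lie farthest from 0.

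Footprints were called in most of these peaks. In replicate 1, 100 of 112 peaks (89.3%) held at least 1 footprint, where 77.9% of all peaks did and 89.6% of peaks of like height. In replicate 2 it was 83 of 100 (83%), where 80.8% of all did and 90.2% of peaks of like height. The peaks held 256 footprints in replicate 1 and 225 in replicate 2, with a median length of 9 bases in each, and Fibcd1 had the most in replicate 1 (55) and Wfs1 in replicate 2 (53). Of these, 114 (44.5%) in replicate 1 and 112 (49.8%) in replicate 2 were overlapped by a footprint of the other replicate, beside 50.04% in replicate 1 and 53.3% in replicate 2 of all footprints inside peaks. The share was highest for Pou3f1, 21 of 33 in replicate 1 and 17 of 25 in replicate 2, and lowest in replicate 1 for Gpr161, 6 of 25.

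Known motifs were searched in the peaks on both strands. The CTCF core, CCANNAG with C or G and then C or T at its N positions, was in 33 of 112 peaks of replicate 1 (29.5%) and 33 of 100 of replicate 2 (33%), where 23.4% of all replicate 1 peaks and 24.2% of all replicate 2 peaks hold it. The SP/KLF box GGGCGG was in 18.8% of the member peaks of replicate 1 (15.4% of all) and 18% of replicate 2 (16.4% of all), and TTGGC, an arm of the NFI site, in 48.2% of replicate 1 (42.5% of all) and 48% of replicate 2 (42.8%). The neuronal bHLH E-box CAGATG was in 24.1% of replicate 1 (26.6% of all) and 22% of replicate 2 (25.3%), and the SOX core ACAAT in 17.9% of replicate 1 (22.7% of all) and 9% of replicate 2 (21.9%). These shares depend on the window searched. In 200 bp at the peak midpoint, CAGATG was in 24.1% of replicate 1 (26.8% of all) and 27% of replicate 2 (25.7%). There the SOX core was in 18.8% of replicate 1 (23.3% of all) and 15% of replicate 2 (22.9%). The AP-1 site TGANTCA was in 10.7% of replicate 1 (9.23% of all) and 7% of replicate 2 (8.79%).

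The other motifs lay on both sides of their background. The general E-box CANNTG, which includes CAGATG, was in 74.1% of replicate 1 (71.4% of all) and 66% of replicate 2 (70.4%). TGACG, the core of the CRE, was in 11.6% of replicate 1 (12.3% of all) and 19% of replicate 2 (12.8%), and CCAAT, which can overlap the NFI arm, in 18.8% of replicate 1 (24.2% of all) and 22% of replicate 2 (24.0%). In the 200 bp window CCAAT was near its background, in 24.1% of replicate 1 (24.5% of all) and 23% of replicate 2 (24.5%). The RFX string GTTGCC was in 8.93% of replicate 1 and 9% of replicate 2 (10.6% of all in each), and the EGR string GCGNGGGCG, which can overlap the SP/KLF box, in 1.79% of replicate 1 (2.22% of all) and 1% of replicate 2 (2.43%). The MEF2 motif was in 2 peaks of replicate 1 (2.59% of all) and 0 of replicate 2 (2.53%). The octamer ATGCAAAT, the string POU factors such as Pou3f1 bind, was in 0 of 112 peaks of replicate 1 (1.33% of all) and 0 of 100 of replicate 2 (1.29%), and the full CRE TGACGTCA in 0 of replicate 1 (0.695% of all) and 0 of replicate 2 (0.757%). The member peaks were also richer in GC, with medians of 54.6% in replicate 1 and 55.1% in replicate 2 against 51.4% in replicate 1 and 51.9% in replicate 2 over the genome, which moves with the GC-rich motifs; its part in these shares was not tested.

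Where a match lay relative to the footprints differed by motif. Footprints of both replicates cover 5.47% of the bases of the 132 sites. Of 46 CTCF core matches 12 (26.1%) lay wholly inside such bases, beside 16.8% of matches in all peaks, and they were spread over 6 of the 7 regions, all but Man1a. The core searched for is a short string, so CTCF sites of another spelling are not counted, in Man1a or elsewhere. Of 34 SP/KLF boxes 9 (26.5%) did, beside 21.7% of all, and 5 of the 9 were in the Wfs1 region, 3 of them in its promoter. NFI arms did in 7 of 91 (7.69%, beside 7.21%) and CAGATG in 3 of 36 (8.33%, beside 7.75%), near the share of bases covered. AP-1 and SOX matches did in 0 of 12 and 0 of 25, beside 0.794% and 1.72% of all. A match is a string in the reference, not a shown binding event, and the CAST alleles of these hybrid mice were not analysed here.

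**Figure D5:**
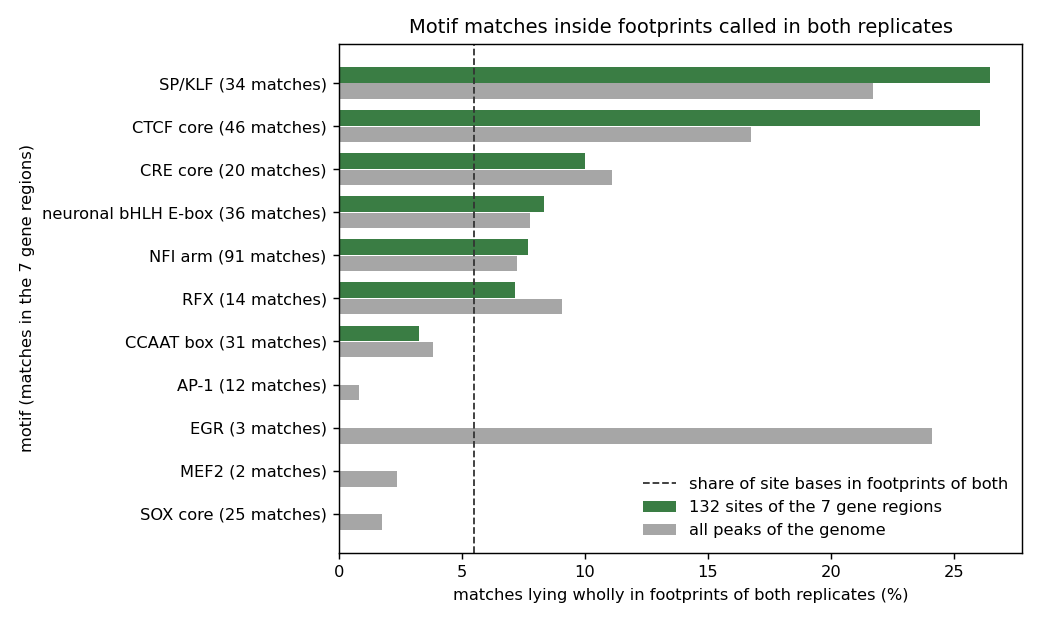
Share of motif matches that lie wholly in footprints called in both replicates (x axis, %), for each motif (y axis, with the number of matches in the 7 gene regions), in the 132 sites (upper bar) and in all peaks of the genome (lower bar); the dashed line is the 5.47% of site bases that such footprints cover. SP/KLF boxes and CTCF cores are highest in the 132 sites, at 26.5% and 26.1%.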

How the data were processed

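DNase-seq of 2 hippocampus libraries was used as the authors deposited it, per the file headers derived separately for each sample from filtered alignments on mm10; aligner and peak caller are not named there. Column 7 of the longer of 2 deposited peak lists is the authors' peak signal (height), whose scale is not stated. Its values are whole multiples of 1 step, 0.00656 in replicate 1 and 0.00646 in replicate 2; 100% of heights under 200 steps lay within 0.1 step of a whole multiple, and the median peak had 98 and 99 steps. The deposited p-value columns are a false discovery rate per stretch, listed up to 0.05, and a constant 0.01 for footprints. The depth in reads is unknown.

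Genes came from the basic set of GENCODE M21. Peaks were assigned by midpoint, overlapped at 1 bp or more, and paired where both were best overlaps of one another; the median log2 ratio of all pairs was subtracted. Past 1.5-fold means a scaled log2 ratio beyond 0.58 in size. Counting intervals are exact binomial (95%). A footprint counts as inside a peak that holds it wholly. Values expected for peaks of like height come from deciles of all peaks. For each gene the text names the tallest promoter peak, the tallest site outside promoters, the tallest site of 1 replicate alone and the shared site with the largest ratio in size, and other sites past 1.5-fold; the shared intron sites of Fibcd1 and the start sites without a peak were chosen after their values were seen. The members and lists were chosen with earlier results of these data known. Scripts used Python 3.11.15, numpy 2.4.6, pandas 2.3.3, scipy 1.17.1, pysam 0.24.0 and bedtools 2.31.1, and were tested on simulated data. Alternatives tried were 10 kb flanks, the gene body alone, the shorter peak list, stricter overlap, other promoter windows, other scalings and each replicate left out. For motif shares the alternative was a 200 bp window at the peak midpoint in place of the whole peak. Some single sites and genes are not reported here.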

Additional observations from a re-analysis of the deposited data

How the results depend on the processing

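There is 1 group of 2 libraries, so no result here has a test. No paired analysis was possible because there is no second group to pair with. Around the gene bodies alone the density was 1.17 peaks per 10 kb, and in the shorter peak list 0.617; without 1 replicate it was 0.957 to 1.07. The mean share of peaks overlapped in the other replicate, 76.2%, was 62.5% where overlap had to cover 50% of both peaks and 84.6% in the shorter list; without 1 replicate it was 71.4% to 81.0%. Promoters open in both replicates numbered 3 in the shorter list and 3 at the gene's annotated 5′ end alone, against 5, and 5 to 6 without 1 replicate. The median ratio of the 80 pairs was 0.18 without scaling. Pairs past 1.5-fold numbered 4 with 10 kb flanks and 3 in the gene bodies alone, where fewer pairs remain, against 9. Peaks with a footprint, 86.1% on average, were 92.7% in the shorter list, and 83.0% to 89.3% without 1 replicate. Overlapped footprints, 47.2% on average, were 33.6% where the overlap had to cover 50% of both and 58.5% in the shorter list. The other 29 alternatives of these results stayed within the limit set for each. The limit was the SD of the 2 replicates for shares and densities, and 1.5-fold for counts. For ratios it was the replicate SD of log2 heights divided by the square root of the number of pairs. Leaving out 1 of 2 replicates always moves a mean by less than their SD. Those settings could therefore not come out as moved for shares and densities, and lend no support. Of the values of single genes and motifs 42 stayed and 20 moved, among them the mean ratio of Gpr161, 0.14, which was -0.10 in the gene body alone. Peaks near the authors' threshold limit what 1 replicate alone can show.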
